A study of Caenorhabditis elegans with 6 samples.

Results

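The insulin-like peptide genes of *Caenorhabditis elegans* were followed in RNA bound to tagged ribosomes, after exposure of the animals to antimycin A or to its vehicle. The members are the protein-coding genes named *ins* with a number, together with *daf-28*. They are 40 of the 46904 genes in the deposited table, and the rule that picks them reads gene names and gene type, not measured values. Of the 40, 33 reached 1 TPM (a gene's abundance scaled to its length and to the whole library) in at least 1 library, 5 were seen only below 1 TPM, and 2 were listed at 0 throughout.

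Insulin-like peptides are small secreted hormones that are cut from precursors, packed into dense-core vesicles and released mainly by neurons and the intestine. They act on a single receptor of the insulin receptor family, DAF-2, and some members activate it while others oppose it. An active receptor signals through a PI3-kinase and AKT kinases, which keep the FoxO transcription factor DAF-16 out of the nucleus. The family is known in this animal for the control of dauer arrest, lifespan, fat storage, germline growth and several forms of learning, among them learned avoidance of pathogenic bacteria.

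Each of 3 independent experiments gave 1 library from animals exposed to antimycin A (4.5 µM, 6 h), which blocks respiratory complex III, and 1 from animals exposed to ethanol (EtOH) for the same time. All animals were young adults of strain CLP1481, raised at 20 °C, with the extrachromosomal array twnEx675, which joins the tagged construct Ptbh-1::rpl-22::3xHA to the marker Pgcy-8::gfp. The array is present in both groups and the HA tag on RPL-22 is expressed wherever the *tbh-1* promoter is active. The labels call the source *tbh-1* expressing neurons, and *tbh-1* encodes the enzyme that makes octopamine in the RIC neurons and is also active in the gonadal sheath. Values come from the pull-down and were not set against total RNA of the same animals.

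Markers placed several tissues in the libraries. *tbh-1* read 1455 to 2683 TPM in antimycin A and 1592 to 1722 TPM in EtOH, and the tyramine-synthesis gene *tdc-1* read 11.6 to 22.3 TPM in antimycin A and 8.33 to 23.6 TPM in EtOH. The 5 gonadal sheath markers summed to 4894 to 6550 TPM in antimycin A and 2804 to 4364 TPM in EtOH, and 0 of them were called (2 higher with the replicate block). Their sum came mostly from *inx-8*, while *ceh-18* and *fkh-6* stayed at or below 9.69 TPM in all libraries. The 10 pan-neuronal markers summed to 288 to 572 TPM in antimycin A and 171 to 365 TPM in EtOH, with 0 of 7 tested markers called (1 higher with the block). That sum came mostly from *snb-1* and *unc-64*, while *unc-10* and *rgef-1* stayed below 1 TPM in all libraries. Of 8 intestine markers 2 rose and 4 fell (6 with the block). The shares over all tested genes were 14.2% higher and 6.47% lower, or 29.6% and 13% with the block. The sum of the intestine markers was 1054 to 2551 TPM in antimycin A, against 3192 to 5281 TPM in EtOH. It came mostly from *asp-1* and *act-5*. Of 11 markers of sensory neurons, the cells in which several insulin-like peptides are known to be made, 9 stayed below 1 TPM in all libraries. Their sum, 7.74 to 8.75 TPM in antimycin A and 3.08 to 4.65 TPM in EtOH, came mostly from *daf-7*. Of these markers *daf-7* alone was tested, and it was not called (higher with the block). In pull-down libraries without total RNA of the same animals, the causes of a change in a tissue's markers cannot be told apart. The 7 germline markers summed to 103 to 241 TPM in antimycin A and 98.1 to 340 TPM in EtOH, and the 6 hypodermal markers to 163 to 306 TPM in antimycin A and 337 to 413 TPM in EtOH. Among the germline markers 0 were called (1 lower with the block). Of the hypodermal markers *col-19*, which held most of their sum, was called lower and *dpy-7* higher. Markers of body wall muscle summed to 113 to 196 TPM in antimycin A and 101 to 193 TPM in EtOH, and those of pharynx, coelomocytes and glia stayed at or below 7.64 TPM in all libraries. The part of these tissue markers in the results below was not tested.

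The family took a larger share of the antimycin A libraries. The 40 genes summed to 428, 558 and 457 TPM in the antimycin A libraries (here and below in the order of replicates 1, 2 and 3), against 240.5, 266 and 279 TPM in the EtOH libraries. The mean sum was 481 TPM ± 68.3 in antimycin A and 262 TPM ± 19.9 in EtOH (SD, n = 3 each), and the groups did not overlap. That separation depends on the scaling, since after median-of-ratios scaling the sums were 298, 491 and 535 in antimycin A and 194, 330 and 382 in EtOH, with overlapping groups. Within each same-numbered pair the antimycin A sum was the higher one, before and after that scaling. Between 24 and 28 of the genes stood at 1 TPM or more in an antimycin A library and 23 or 24 in an EtOH library, so the number of detected genes differed little. The same 9 genes held 83.6% to 89.9% of the family's TPM in antimycin A and 80.4% to 83.0% in EtOH.

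**Figure D1:**
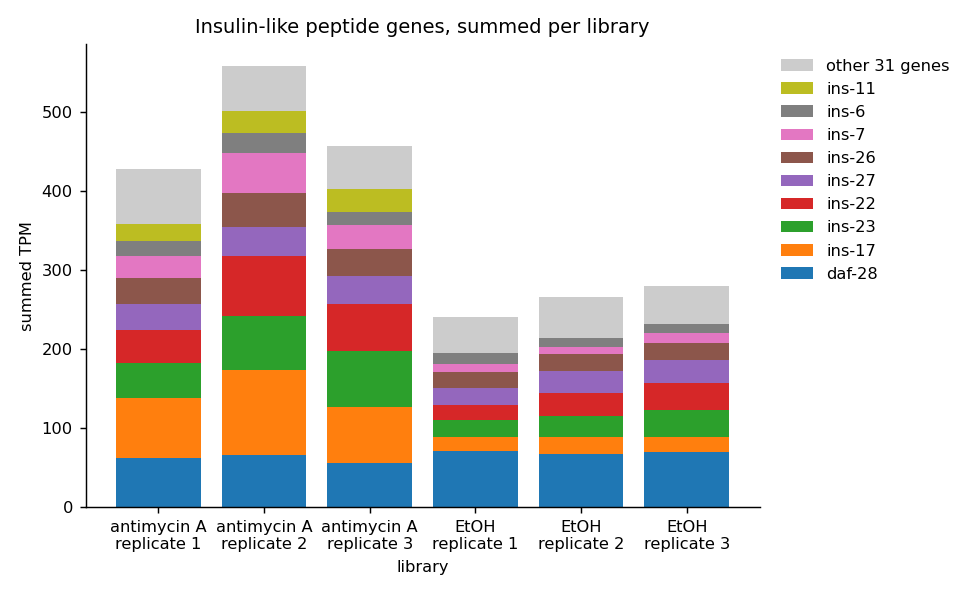
Summed TPM of the 40 insulin-like peptide genes in each library (bars), split into the 9 genes with the highest mean over all libraries and the others together. The antimycin A bars reach 428 to 558 TPM and the EtOH bars 240 to 279 TPM, and the *daf-28* segment is about as tall in both groups while the *ins-17* segment is taller in antimycin A.

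The order of the genes within the family differed between the groups. *ins-17* had the highest mean in antimycin A, at 84.4 TPM ± 19.9, and ranked 6th in EtOH at 19.5 TPM ± 2.31. Its antimycin A range overlapped those of *ins-22* and *ins-23*, and in replicate 3 *ins-23* at 71.7 TPM stood above *ins-17* at 70.8 TPM. *daf-28* ranked highest in EtOH at 69.5 TPM ± 2.23, above the range of every other member there, and 2nd in antimycin A at 61.5 TPM ± 5.73 (SD, n = 3 each). *daf-28* made up 12.0% to 14.6% of the family's TPM in antimycin A and 24.9% to 29.8% in EtOH. In antimycin A the libraries of *daf-28*, *ins-23* and *ins-22* overlapped, as did those of *ins-26*, *ins-7* and *ins-27*. In EtOH the ranges of neighbours in rank from *ins-22* down to *ins-17* (*ins-22*, *ins-23*, *ins-27*, *ins-26*, *ins-17*) overlapped.

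Each gene was compared on the log2(TPM + 1) scale with limma, fitted over the 11099 genes that reached 1 TPM in 3 or more of the 6 libraries and adjusted over all of them by the Benjamini-Hochberg method. Of the 40 members 27 passed that filter, and 13 did not and have values but no test. Among the 27, 8 were higher in antimycin A (*ins-7*, *ins-10*, *ins-11*, *ins-17*, *ins-22*, *ins-23*, *ins-26* and *ins-29*), where 14.2% of all tested genes were higher, and 2 were lower (*ins-33* and *ins-39*), where 6.47% were lower. *ins-10*, *ins-11* and *ins-33* reached 1 TPM in 1 group alone and so had to differ to be tested, and the counts carry that selection. *ins-39* passed mainly through its EtOH libraries, with 1 antimycin A library at 1 TPM or more. The median log2 fold change was 0.70 over the 27 and 0.21 over all tested genes. Median-of-ratios scaling moves the all-gene median by -0.25, to -0.04, and under it *ins-22*, *ins-23* and *ins-26* were no longer called while *ins-9* was called lower (5 members higher against 12.2% of all genes, 3 lower against 11% of all genes). With the replicate number as a block, 14 members were higher and 4 lower, where 29.6% and 13% of all genes were, and all 10 calls above stayed in the same direction. The 2 members lower in the main fit are 7.41% of the 27. In each of these fits the number of members lower was near the share over all genes.

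**Figure D2:**
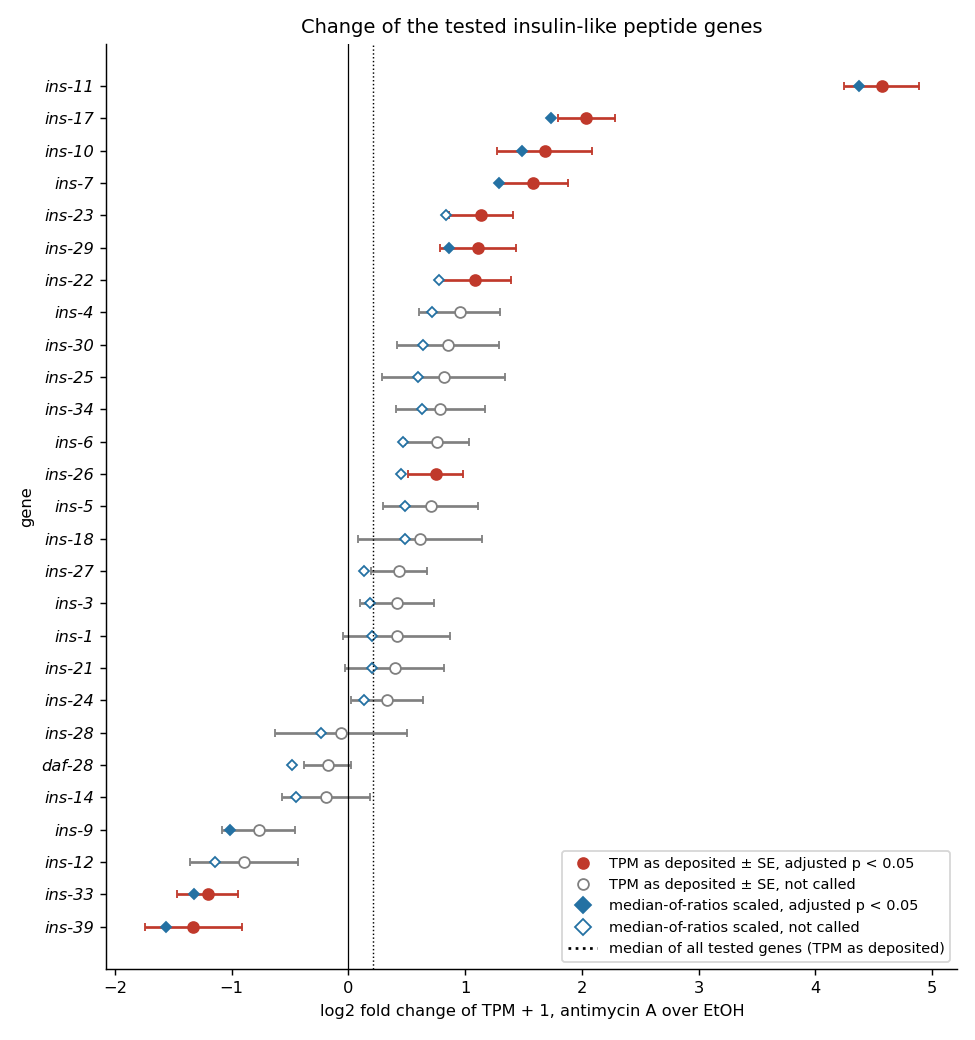
Log2 fold change of TPM + 1, antimycin A over EtOH, of the 27 tested insulin-like peptide genes (circles with SE; red where called) and the same after median-of-ratios scaling (diamonds; filled where called); the dotted line is the median of all tested genes, 0.21. *ins-11* stands alone at 4.57, and *ins-22*, *ins-23* and *ins-26* have open diamonds.

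Counting libraries in place of the test takes in genes below the filter. Of the 38 members above 0 in some library, 12 had all antimycin A libraries above all EtOH libraries (31.6%), where 17.8% of protein-coding genes above 0 did, and 6 had all of them below (15.8%), where 9.05% did. After median-of-ratios scaling 7 and 6 of the 38 members did, where 14.6% and 14.4% of protein-coding genes did. These scaled counts are near the shares over protein-coding genes. The 12 are the 8 genes called higher with *ins-4*, *ins-6*, *ins-20* and *ins-27*. The 6 are *ins-33*, *ins-39*, *ins-9*, *ins-19*, *ins-37* and *daf-28*.

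**Figure D3:**
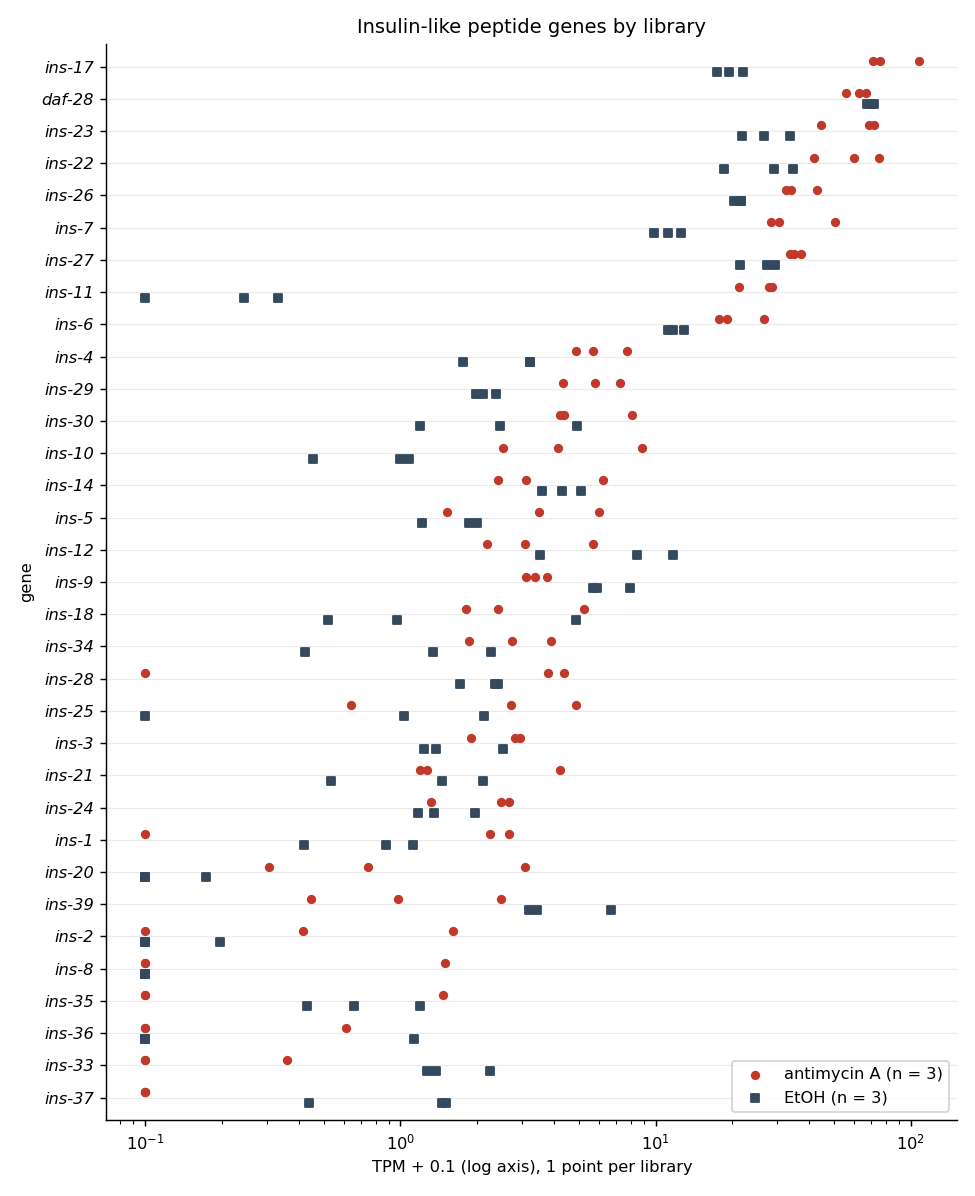
TPM + 0.1 on a log axis for the 33 insulin-like peptide genes that reached 1 TPM, 1 point per library (red circles antimycin A, dark squares EtOH), ordered by their antimycin A mean; a point at 0.1 is a gene listed at 0. *ins-11* has its antimycin A points between 21.1 and 28.6 TPM and its EtOH points at or below 0.233 TPM, while *ins-33* and *ins-37* have theirs the other way round.

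The gene with the largest change was *ins-11* (WBGene00002094, WBcel235 chromosome II, 5556761 to 5557088, plus strand), which is known as an intestinal peptide induced by pathogenic bacteria that acts in learned avoidance of them. It read 21.1, 27.7 and 28.6 TPM in antimycin A, and in EtOH it was listed at 0 in replicate 1 and read 0.143 and 0.233 TPM in replicates 2 and 3. The groups were far apart, and the gene ranked 8th of the family in antimycin A. It passed the filter through its antimycin A libraries alone, and its p-value carries that selection. The log2 fold change was 4.57 ± 0.32 SE (adjusted p = 9.62e-06, limma), and the pseudocount of 1 understates it, since EtOH lay far below 1 TPM. The call held under all 18 alternatives tried, with an adjusted p of 6.53e-16 to 0.00312. The intestine markers *ges-1* and *elt-7* were also higher in antimycin A while *ifb-2*, *pept-1*, *act-5* and *asp-1* were lower, and their part in the *ins-11* values was not tested.

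Of the family members beside *ins-11*, *ins-12* did not follow it, and *ins-13* and *ins-38* were too low to compare. *ins-12* (chromosome II, 5554617 to 5555306, plus strand) read 2.09, 2.98 and 5.56 TPM in antimycin A and 3.44, 8.34 and 11.5 TPM in EtOH, lower in 3 of 3 same-numbered pairs although the groups overlapped. Its log2 fold change was -0.90 ± 0.46 (adjusted p = 0.230; 0.00272 with the replicate block). *ins-13* stayed at or below 0.0380 TPM in all libraries, and *ins-38* was listed at 0 in all 6. The 4 members lie between 5530501 and 5557088 on chromosome II. A gene outside the family, *acdh-2*, shares 71 bp with *ins-13* and is named here after its values were seen. It read 45.0, 42.7 and 25.0 TPM in antimycin A and 25.5, 15.1 and 12.35 TPM in EtOH. It was higher in each same-numbered pair, with overlapping groups.

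*ins-17* (WBGene00002100, chromosome III, 4476888 to 4477583, minus strand), reported to oppose DAF-2 in dauer formation, read 75.2, 107 and 70.8 TPM in antimycin A and 17.4, 21.9 and 19.3 TPM in EtOH. Its lowest antimycin A library was above its highest EtOH library by a wide margin. The log2 fold change was 2.04 ± 0.25 (adjusted p = 2.74e-04, or 0.00303 with median-of-ratios scaling, which gave 1.74), and the call held under all 18 alternatives. *ins-1* and *ins-18*, also reported to oppose the receptor, were low. *ins-1*, which encodes a peptide that opposes DAF-2 in dauer formation and is needed for learning about salt, read 2.57 and 2.14 TPM and was listed at 0 in antimycin A, and read 0.782, 1.02 and 0.321 TPM in EtOH (0.41 ± 0.46, adjusted p = 0.645). *ins-18* read 2.31, 5.14 and 1.71 TPM in antimycin A and 4.76, 0.869 and 0.422 TPM in EtOH (0.62 ± 0.53, adjusted p = 0.526). Both genes had overlapping groups.

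Among members known to activate DAF-2, *ins-7* rose and *daf-28* was not called. *ins-7* (WBGene00002090, chromosome IV, 9682013 to 9682826, minus strand) is made in neurons and in the intestine, and its neuronal peptide hinders learned avoidance of pathogens. It read 28.2, 50.4 and 30.3 TPM in antimycin A and 11.1, 9.71 and 12.5 TPM in EtOH. All antimycin A libraries were above all EtOH libraries, with a log2 fold change of 1.58 ± 0.30 (adjusted p = 0.00375), and the call was lost only without both libraries of replicate 2 (adjusted p = 0.172). *ins-8*, next to it on the chromosome, was listed at 0 in 5 libraries and read 1.40 TPM in antimycin A replicate 1.

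*daf-28* (WBGene00000920, chromosome V, 19815133 to 19816451, plus strand), a food-regulated peptide of amphid neurons that prevents dauer arrest, read 62.4, 66.8 and 55.4 TPM in antimycin A and 71.7, 67.3 and 69.6 TPM in EtOH. The groups did not overlap, but the closest libraries were 66.8 and 67.3 TPM, and the log2 fold change of -0.18 ± 0.20 was not called (adjusted p = 0.656; with median-of-ratios scaling -0.48, adjusted p = 0.237). *ins-6*, made in amphid neurons and known to promote learned avoidance of pathogens by holding *ins-7* down, read 18.9, 26.4 and 17.6 TPM in antimycin A and 12.8, 11.04 and 11.6 TPM in EtOH. The antimycin A libraries all lay above those of EtOH, and the difference missed the threshold (0.76 ± 0.28, adjusted p = 0.0827; 0.00206 with the replicate block; 0.270 with median-of-ratios scaling). *ins-4*, another activating peptide, read 7.63, 4.77 and 5.60 TPM in antimycin A and 3.11, 3.13 and 1.66 TPM in EtOH, also without overlap (0.95 ± 0.35, adjusted p = 0.0827; 0.00208 with the block).

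*ins-4* and *ins-6* belong to a run of 6 members between 5988526 and 6011321 on chromosome II, in which 0 of the 4 tested genes were called. *ins-3*, which supports germline proliferation in larvae, read 2.83, 2.70 and 1.79 TPM in antimycin A and 1.14, 2.43 and 1.278 TPM in EtOH (0.42 ± 0.32, adjusted p = 0.461). *ins-5* read 3.41, 1.42 and 5.88 TPM in antimycin A and 1.12, 1.89 and 1.76 TPM in EtOH (0.70 ± 0.40, adjusted p = 0.289; 0.0414 with the block). Both had overlapping groups. *ins-2* read 1.503 and 0.317 TPM and was listed at 0 in antimycin A, and in EtOH it was listed at 0 in replicates 1 and 2 and read 0.0965 TPM in replicate 3. *ins-20* read 0.645, 0.205 and 2.99 TPM in antimycin A, against 0, 0 and 0.0729 TPM in EtOH, and the authors' deposited table gives it a q-value of 0.0342. Of this run *ins-4*, *ins-6* and *ins-20* had all antimycin A libraries on top.

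A second group of neighbours lies on chromosome III between 10023804 and 10028600, and *ins-22* and *ins-23* there ran closely together. *ins-22* (WBGene00002105), whose peptide is widely used as a fluorescent dense-core vesicle cargo, read 41.6, 74.9 and 59.7 TPM in antimycin A and 18.5, 28.9 and 34.5 TPM in EtOH. *ins-23* (WBGene00002106) read 44.5, 68.3 and 71.7 TPM in antimycin A and 21.6, 26.6 and 33.6 TPM in EtOH. Neither gene's groups overlapped, and the ranges of the 2 genes overlapped each other in both groups. The log2 fold change was 1.08 ± 0.31 for *ins-22* (adjusted p = 0.0309) and 1.14 ± 0.27 for *ins-23* (adjusted p = 0.0144), but neither call was kept with median-of-ratios scaling (0.259 for *ins-22*, 0.192 for *ins-23*) or quantile normalization (0.177 for *ins-22*, 0.110 for *ins-23*). *ins-22* also lost its call without antimycin A replicate 2 (adjusted p = 0.155) or 3 (0.0696) or EtOH replicate 1 (0.0532) or 2 (0.0824) or with no filter on low values (0.0973), and *ins-23* without antimycin A replicate 2 (0.0792) or EtOH replicate 2 (0.0611). *ins-21*, the first gene of the group, was low, at 4.10, 1.17 and 1.09 TPM in antimycin A and 1.35, 2.00 and 0.436 TPM in EtOH (0.40 ± 0.42, adjusted p = 0.629).

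The largest run holds 7 members between 14012369 and 14037803 on chromosome I, all of them tested. *ins-26* (WBGene00002109) read 32.4, 42.9 and 33.7 TPM in antimycin A and 20.2, 21.5 and 21.5 TPM in EtOH, without overlap. It was called at 0.75 ± 0.24 (adjusted p = 0.0496), a call lost on leaving out any 1 library (adjusted p = 0.0592 to 0.220) after median-of-ratios scaling (0.342) or quantile normalization (0.258), and with a pseudocount of 0.1 (0.0522) or a filter on the mean (0.0503). *ins-29* (WBGene00002112) read 7.18, 5.69 and 4.22 TPM in antimycin A and 1.88, 2.27 and 2.01 TPM in EtOH (1.11 ± 0.32, adjusted p = 0.0343). Its call was kept after both scalings and lost without antimycin A replicate 1 (adjusted p = 0.133) or 2 (0.118) or EtOH replicate 2 (0.113) or 3 (0.116) and with no filter on low values (0.0583).

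The remaining genes of that run were not called. *ins-27* was as abundant as *ins-26*, at 33.5, 37.0 and 34.8 TPM in antimycin A and 21.3, 27.2 and 29.2 TPM in EtOH, and its groups did not overlap (0.43 ± 0.24, adjusted p = 0.261; 0.0409 with the block). *ins-30* read 7.95, 4.26 and 4.11 TPM in antimycin A and 4.80, 2.36 and 1.09 TPM in EtOH, higher in 3 of 3 pairs (0.85 ± 0.44, adjusted p = 0.225; 0.00544 with the block). The others were lower in level and had overlapping groups. *ins-25* read 2.60, 0.542 and 4.77 TPM in antimycin A, and was listed at 0 and read 2.03 and 0.932 TPM in EtOH (0.82 ± 0.53, adjusted p = 0.356). *ins-24* read 2.56, 2.37 and 1.22 TPM in antimycin A and 1.86, 1.07 and 1.25 TPM in EtOH (0.33 ± 0.31, adjusted p = 0.574). *ins-28* read 4.28, 0 and 3.67 TPM in antimycin A and 2.32, 2.24 and 1.61 TPM in EtOH (-0.06 ± 0.57, adjusted p = 0.972). The 0 of *ins-28* in antimycin A replicate 2 sets its sign, since the log2 fold change was 0.71 without that library.

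*ins-10* and *ins-34* lie outside these runs, and *ins-14* lies beside *ins-15*. *ins-10* (WBGene00002093, chromosome V, 14033950 to 14034393, plus strand) rose, at 4.05, 8.76 and 2.42 TPM in antimycin A and 0.978, 0.355 and 0.897 TPM in EtOH (1.68 ± 0.41, adjusted p = 0.0152). The groups did not overlap, and the call was lost without antimycin A replicate 2 (adjusted p = 0.0514) or EtOH replicate 2 (0.0814) and with no filter on low values (0.0745). The gene passed the filter through its antimycin A libraries alone, and its p-value carries that selection. It shares 71 of its 444 bp with *vps-39* on the opposite strand, which read 16.3, 10.2 and 5.83 TPM in antimycin A and 15.4, 5.73 and 4.92 TPM in EtOH, and without a stated strand setting reads in the shared stretch cannot be told apart. *ins-34* read 3.80, 1.76 and 2.64 TPM in antimycin A and 2.16, 0.322 and 1.24 TPM in EtOH (0.79 ± 0.38, adjusted p = 0.202; 0.0117 with the block), higher in 3 of 3 pairs. *ins-14* read 3.00, 6.11 and 2.31 TPM in antimycin A and 3.50, 4.98 and 4.20 TPM in EtOH (-0.19 ± 0.37, adjusted p = 0.824).

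The 2 members called lower were of low abundance. *ins-33* (WBGene00002116, chromosome I, 13637845 to 13639311, minus strand), which with *ins-3* supports larval germline proliferation, read 0.260 TPM in antimycin A replicate 2 and was listed at 0 in replicates 1 and 3. In EtOH it read 1.27, 2.14 and 1.17 TPM, so the groups did not overlap. It passed the filter through its EtOH libraries alone, and its p-value carries that selection. The log2 fold change was -1.21 ± 0.26 (adjusted p = 0.00792), and the call was lost without both libraries of replicate 2 (adjusted p = 0.0773). A filter on a mean of 1 TPM leaves the gene untested. *ins-39* (WBGene00017668, chromosome X, 1343837 to 1344410, minus strand) read 0.877, 2.37 and 0.347 TPM in antimycin A and 3.10, 3.32 and 6.60 TPM in EtOH (-1.33 ± 0.41, adjusted p = 0.0466). It passed the filter mainly through its EtOH libraries, and its p-value carries that selection. Its call was lost without antimycin A replicate 1 (adjusted p = 0.123) or 3 (0.130) or EtOH replicate 2 (0.0924) or 3 (0.156), with a pseudocount of 0.1 (0.0598) or 5 (0.0515), and with no filter on low values (0.150). *ins-9* read 3.01, 3.26 and 3.64 TPM in antimycin A and 5.57, 7.83 and 5.78 TPM in EtOH, without overlap. It was not called (-0.77 ± 0.32, adjusted p = 0.126), but was with median-of-ratios scaling (-1.02, adjusted p = 0.0430) and with the block (0.00886).

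The rest were near or at 0. *ins-37* had a listed value of 0 in each antimycin A library and read 1.41, 0.337 and 1.35 TPM in EtOH, and the authors' deposited table gives it a q-value of 0.00216. *ins-19* was likewise at 0 throughout antimycin A and read 0.727, 0.504 and 0.522 TPM in EtOH. No fold change is given for either gene, since its antimycin A libraries are all at 0. With no filter on low values the same limma fit called *ins-19* lower (adjusted p = 0.00527) and did not call *ins-37* (adjusted p = 0.0606). *ins-35*, an intestinal peptide that with *ins-7* acts against dauer arrest, read 1.37 TPM in antimycin A replicate 1 and was listed at 0 in replicates 2 and 3, against 0.332, 0.557 and 1.09 TPM in EtOH. *ins-36* was above 0 in antimycin A replicate 1, at 0.510 TPM, and in EtOH replicate 2, at 1.03 TPM, and listed at 0 elsewhere. It shares 935 bp with *Y53H1A.7* on the opposite strand. *ins-15*, *ins-31* and *ins-32* never exceeded 0.802 TPM, and *ins-16* and *ins-38* were listed at 0 in every library.

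The authors' deposited table calls 8 members at a q-value below 0.05, 5 higher and 3 lower, where 8.14% and 7.4% of genes above 0 in any library were. Of these *ins-7*, *ins-10*, *ins-11*, *ins-17*, *ins-33* and *ins-39* were also called here, and *ins-20* and *ins-37* were below the filter. *ins-22*, *ins-23*, *ins-26* and *ins-29* had q-values of 0.347, 0.217, 0.532 and 0.276 in the authors' deposited table. The log2 ratio in the authors' deposited table is 7.69 for *ins-11*, 2.11 for *ins-17*, 1.71 for *ins-7* and 2.77 for *ins-10*.

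Of 15 listed genes of the insulin receptor pathway 14 could be tested. Of these 3 rose, 0 fell and 11 missed the threshold, and the replicate block raised the number higher to 6. Over all tested genes 14.2% were higher, and 29.6% with the block. The list's median log2 fold change was 0.49, and 0.21 after median-of-ratios scaling. *akt-2*, an AKT kinase, read 28.6, 27.3 and 18.02 TPM in antimycin A and 9.42, 6.73 and 4.18 TPM in EtOH (1.75 ± 0.35, adjusted p = 0.00536). *ftt-2*, a 14-3-3 protein that binds DAF-16 in the cytoplasm, averaged 938 TPM ± 151 in antimycin A and 438 TPM ± 94.4 in EtOH (1.11 ± 0.22, adjusted p = 0.00502). *ist-1*, the insulin receptor substrate homologue, averaged 5.05 TPM ± 0.167 in antimycin A and 1.76 TPM ± 0.540 in EtOH (SD, n = 3 each; 1.15 ± 0.31, adjusted p = 0.0255). These 3 were higher in every antimycin A library than in any EtOH library, and *ist-1* lost its call without antimycin A replicate 1 (adjusted p = 0.0781) or 2 (0.0890) or EtOH replicate 2 (0.148) or 3 (0.0930). With both libraries of replicate 2 left out, 0 of the list were called. *par-5*, the other 14-3-3 gene, missed the threshold (0.53 ± 0.19, adjusted p = 0.0792; 0.00628 with the block).

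The receptor gene *daf-2* was too low to test, at 3.04, 0.718 and 0.452 TPM in antimycin A and 3.46, 0.563 and 0.168 TPM in EtOH, with the replicate 1 libraries highest in both groups. *daf-16* read 42.2, 28.9 and 32.01 TPM in antimycin A and 32.3, 21.5 and 14.1 TPM in EtOH. The groups overlapped, and the difference was not called (0.64 ± 0.32, adjusted p = 0.221; 0.00534 with the block).

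Of 15 listed genes of peptide processing and release 14 could be tested, of which 4 rose, 0 fell and 10 missed the threshold. With the replicate block 9 were higher, and after median-of-ratios scaling 2, where over all tested genes 14.2% were higher, 29.6% with the block and 12.2% with that scaling. The scaled count is near the share over all genes. The gene of the list not tested was *unc-31*, named here after its values were seen, at or below 0.307 TPM in all libraries. *sbt-1*, a chaperone of the prohormone convertase EGL-3, read 199, 223 and 197 TPM in antimycin A and 93.2, 91.4 and 90.9 TPM in EtOH (1.16 ± 0.18, adjusted p = 0.00143; 0.0538 after median-of-ratios scaling). The proprotein convertase gene *kpc-1* averaged 20.5 TPM ± 6.56 in antimycin A and 5.40 TPM ± 1.58 in EtOH (1.73 ± 0.36, adjusted p = 0.00666). *ida-1*, for a dense-core vesicle membrane protein, averaged 20.2 TPM ± 6.61 in antimycin A and 5.63 TPM ± 2.33 in EtOH (SD, n = 3 each; 1.68 ± 0.37, adjusted p = 0.0100). The call of *ida-1* was lost without antimycin A replicate 2 (adjusted p = 0.0665) or EtOH replicate 2 (0.0520). *unc-108*, for a Rab2 GTPase of vesicle maturation, was called at 0.79 ± 0.22 (adjusted p = 0.0291) and not after either scaling (0.177 and 0.0541). It also lost the call with no filter on low values (0.0574) and without antimycin A replicate 1 (adjusted p = 0.105) or 2 (0.0651) or EtOH replicate 2 (0.135) or 3 (0.109). Leaving out EtOH replicate 1 gave 8 genes higher, leaving out replicate 2 of either group gave 2, and leaving out both gave 0.

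Genes known as targets of DAF-16 rose in most cases. Of 12 listed genes 9 could be tested, of which 7 rose (8 with the block), 1 fell and 1 missed the threshold. Over all tested genes 14.2% were higher (29.6% with the block) and 6.47% lower. This list, like the others, was chosen with earlier results of these data known, so its count is no independent support. The median log2 fold change was 1.69 (1.38 after median-of-ratios scaling). *mtl-1*, for a metallothionein, averaged 128 TPM ± 34.7 in antimycin A and 4.59 TPM ± 1.70 in EtOH (4.54 ± 0.30, adjusted p = 7.85e-06). *dod-3* averaged 273 TPM ± 107 in antimycin A and 10.5 TPM ± 2.46 in EtOH (4.52 ± 0.30, adjusted p = 7.46e-06). *icl-1*, for the glyoxylate cycle enzyme, averaged 174 TPM ± 22.3 in antimycin A and 12.0 TPM ± 3.72 in EtOH (3.79 ± 0.26, adjusted p = 8.60e-06), and the small heat shock gene *hsp-12.6* averaged 225 TPM ± 38.6 in antimycin A and 69.0 TPM ± 10.4 in EtOH (1.69 ± 0.22, adjusted p = 4.23e-04; SD, n = 3 each). These 4 held under all 18 alternatives each. The gene of the list that fell was the lysozyme gene *lys-7*, named here after its value was seen, with 289 TPM ± 77.1 in antimycin A and 733 TPM ± 101 in EtOH (-1.37 ± 0.24, adjusted p = 0.00265). *ins-7* is itself known as a gene that DAF-16 represses, and it was not counted in this list.

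**Figure D4:**
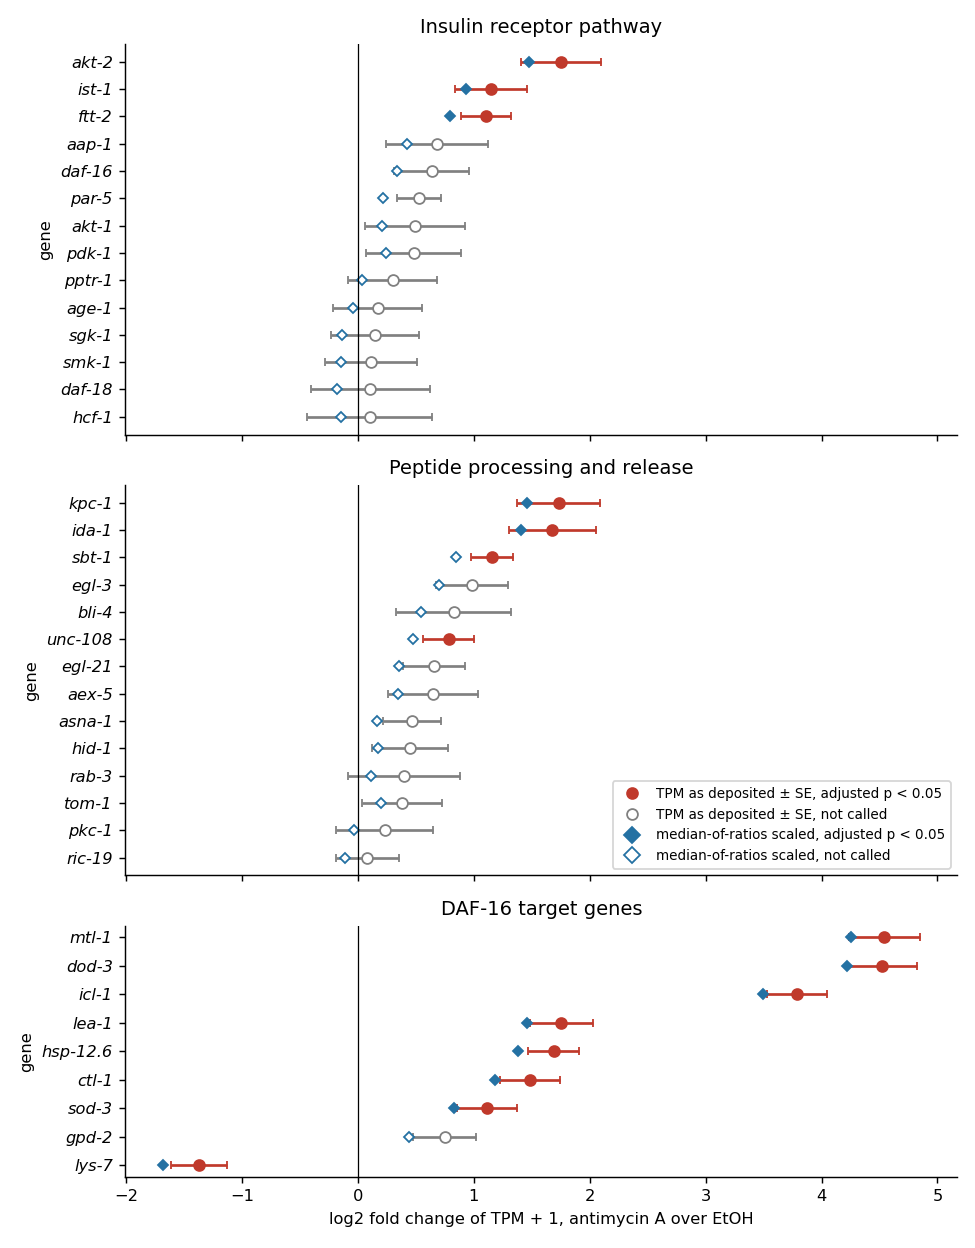
Log2 fold change of TPM + 1, antimycin A over EtOH, for the tested genes of 3 lists (circles with SE; red where called) and the same after median-of-ratios scaling (diamonds; filled where called). *mtl-1*, *dod-3* and *icl-1* lie between 3.79 and 4.54, *lys-7* lies at -1.37, and most genes of the receptor pathway have error bars near 0.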

How the data were processed

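Ribosome-bound RNA was measured in 6 libraries, 3 per group. The build was WBcel235, per the submitters' processing notes, which also name StringTie 2.1.4 and HISAT2, the trimmer Trimmomatic 0.36, the tool bcl2fastq 2.20 and, for testing, DESeq2 1.28.1. For the HISAT2 version, the strand setting and the test formula: not given in the sources used here. The authors deposited TPM for 46904 genes, with a ratio of group means, its log2 value, a p-value and a q-value per gene. Values of 1e-04, which stand for no signal, were set to 0; a 0 can be a failed estimate. TPM keep no counts, so the depth of the libraries is unknown and no interval for counting error can be had. The 3 deposited tables of single pairs were not used, and columns of other samples numbered 0.

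Genes were compared in R 4.3.3 by limma 3.58.1, on log2 of TPM plus a pseudocount of 1, by group alone. The prior variance followed the mean level, and calls were made at an adjusted p below 0.05. The script was tested on simulated data. A fold change on this scale understates the change of low genes. Tables and figures used Python 3.11.15, pandas 2.3.3, numpy 2.4.6 and matplotlib 3.10.9. Genes were named by rule: every member reaching 1 TPM, the 4 smallest p values of each pathway list, *daf-2* and *daf-16*. The calls that the replicate block changed are printed beside each member and each named pathway gene, and by marker list for the tissues. The members and lists were chosen with earlier results of these data known.

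The design text pairs 1 control with 1 trained sample per independent experiment. Same-numbered libraries deviated together from their groups, with a correlation of 0.68 for replicate 1, 0.31 for replicate 2 and 0.59 for replicate 3. The numbers thus pair the libraries, and the replicate block was an alternative. Nothing says further how cultures were kept apart, so p-values measure the spread between these samples. Those of the main fit, which leaves the pairing out, also hold the spread between experiments. Other alternatives were pseudocounts of 0.1 and 5, filters, scalings, quality weights, and each library or pair left out with the set of tested genes kept. No count test was run, and the planned promoter search was not run because no sequences were used here.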

Additional observations from a re-analysis of the deposited data

How the results depend on the processing

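Counts are of genes called in antimycin A against EtOH. Members higher numbered 8, and 5 with no filter on low values, after median-of-ratios scaling or after quantile normalization, 14 with the replicate block or sample quality weights, 3 to 8 with a library left out and 2 to 6 with a pair left out. Members lower numbered 2, and 1 with a pseudocount of 0.1 or 5 or a filter on the mean, 4 with the replicate block or quality weights, 1 to 3 with a library left out and 0 to 1 with a pair left out. Among tested members the block changed no call beyond those printed with it above. The lowest counts came without both libraries of replicate 2, and without antimycin A replicate 2 or EtOH replicate 2 alone 3 members were higher. Members whose libraries lay wholly higher numbered 12, and 7 after median-of-ratios scaling, 12 to 17 with a library and 15 to 18 with a pair left out. Those wholly lower numbered 6, and 6 to 8 with a library and 7 to 9 with a pair left out. Leaving libraries out can only keep or raise these counts of separated groups, so these ranges do not show that the counts are stable. Over all genes 1579 were higher, and 1358 after median-of-ratios scaling, 1423 after quantile normalization, 3282 with the replicate block and 4094 with quality weights. Genes higher numbered 982 to 2035 with a library and 485 to 1461 with a pair left out. With no filter on low values, over a larger set of genes, 1376 were higher and 613 lower. Apart from that setting the counts over all genes given here are out of 11099 tested genes. Over all genes 718 were lower, and 1220 after median-of-ratios scaling, 1398 after quantile normalization, 1442 with the block, 1219 with weights, 435 to 720 with a library and 162, 403 or 716 with a pair left out. Receptor pathway genes higher numbered 3, and 6 with the block, 7 with weights, 2 to 4 with a library and 0 to 3 with a pair left out. Processing and release genes higher numbered 4, and 2 after median-of-ratios scaling, 9 with the block, 10 with weights, 2 to 8 with a library and 0 to 5 with a pair left out. DAF-16 targets higher numbered 6 to 8 with a library and 5 to 8 with a pair left out, and those lower 1 with a library and 0 to 1 with a pair left out. The log2 fold change turned in sign for genes that were not called, which were *ins-14* (0.052 with quality weights), *ins-25* (-0.33 with quality weights), *ins-28* (0.067 with a pseudocount of 5), *tbh-1* (-0.020 with median-of-ratios scaling) and *rpl-22* (-0.17 with median-of-ratios scaling). With a library left out it ran over -0.51 to 0.039 for *ins-14*, -0.024 to 0.63 for *ins-21*, -0.49 to 0.71 for *ins-28* and -0.11 to 0.46 for *rpl-22*, and with a pair left out it reached 0.039 for *ins-14*, 0.75 for *ins-28* and -0.017 for *rpl-22*. The mean family sum was higher in antimycin A by 219 TPM, and by 139 after median-of-ratios scaling, an alternative chosen after seeing the data. The cause of these differences was not tested. TPM hold no counts, so the precision of values below 1 TPM is unknown.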
